A study of Mus musculus with 6 samples.

Results

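MHC class I antigen presentation was described here through 10 genes in an immortalized mouse podocyte line: the heavy chains H2-K1 and H2-D1, the light chain B2m, the peptide transporter and loading genes Tap1, Tap2 and Tapbp, the immunoproteasome subunits Psmb8, Psmb9 and Psmb10, and the transcriptional activator Nlrc5. They were taken by gene symbol, 10 rows of the 53715 in the table, and each symbol had 1 row. Podocytes are the epithelial cells that cover the outer side of the kidney's filtering capillaries. The line is labelled wild type and proliferated at 33 °C in medium with 10% serum and recombinant interferon gamma; for differentiation over 10 to 14 days it was moved to 37 °C in medium with 12 mg/ml of collagen type I and 5% serum. The labels name interferon gamma in the first medium and not in the second. The 3 control libraries came from cells transfected with a scrambled siRNA, and the 3 others from cells transfected with an siRNA against Tfeb, labelled as a TFEB knockdown; TFEB is a transcription factor known for activating lysosomal and autophagy genes. The comparison asks which transcripts differ when Tfeb is depleted. The strain and clone of the line are not stated in the sources used here.

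MHC class I molecules show peptides from inside the cell to CD8 T cells and natural killer cells. Proteins are cut by proteasomes, the TAP transporter carries the peptides into the endoplasmic reticulum, and the loading complex places them on a heavy chain paired with beta-2 microglobulin. Interferon gamma raises most genes of this pathway, and replaces the catalytic subunits of the standard proteasome with those of the immunoproteasome; NLRC5 is the activator that assembles on class I promoters.

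Values are FPKM (fragments counted per kilobase of gene, relative to library depth), in replicates 1, 2 and 3 of each group in that order. Fold changes were tested with limma on log2(FPKM + 0.5) over the 12257 genes whose mean reached 1 FPKM. Genes with a Benjamini-Hochberg adjusted p below 0.05 are called higher or lower. The scrambled libraries held 20143910 to 20610888 derived reads and the Tfeb siRNA libraries 18062898 to 20010130. Mitochondrial genes took 1.36% to 1.43% of the reads in the first group and 1.44% to 1.57% in the second. The groups did not overlap in depth or in mitochondrial share, and the part of either in the results was not tested. Tfeb itself had 2.04 ± 0.233 FPKM in the scrambled group and 0.725 ± 0.0916 FPKM in the Tfeb siRNA group (SD, n = 3), and no Tfeb siRNA library reached the lowest scrambled one. Of the markers that define podocytes, Synpo was present at 74.4 FPKM in the scrambled group, while Nphs1, with 0.232 FPKM, was near 0. The labels do not say whether replicates are separate cultures, so every p-value here reflects the spread among these libraries, which may be technical.

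The heavy chains H2-K1 and H2-D1 rose after Tfeb siRNA, the transporter subunit Tap2 fell, and the other 7 members did not pass the test. All 10 members passed the filter on low values. The 3 called members are 30% of the 10, against 33.3% of all tested genes, so the share of members called was near the background. Among all tested genes 16.9% were called higher and 16.4% lower. The groups did not overlap for 5 members (H2-K1 and H2-D1 upward, Tap2, Psmb9 and Psmb10 downward), against 48.7% of all tested genes. The median log2 fold change of the members was -0.16, beside 0.02 for all tested genes, and 4 members had a positive and 6 a negative value. With the replicate number as a block, 2 members were higher and 3 lower, since Tapbp and Psmb8 passed there as well; that model called 40.2% of all tested genes. In bulk RNA, fewer cells expressing a gene and less of its RNA per cell cannot be told apart.

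**Figure D1:**
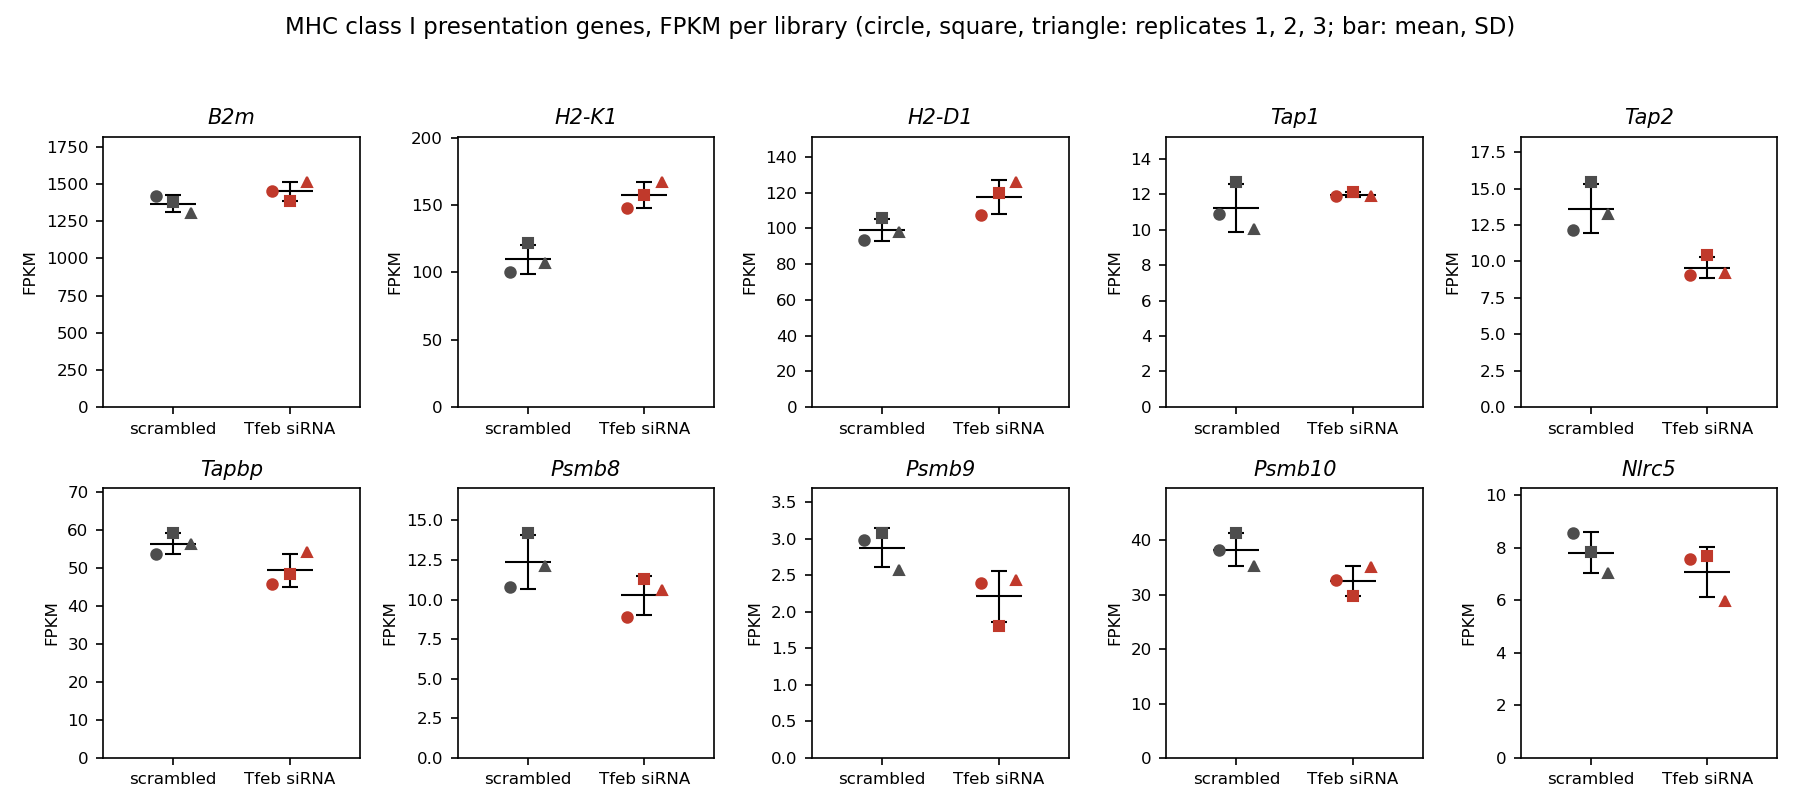
FPKM of the 10 members in each library (points, with replicates 1, 2 and 3 as circle, square and triangle) with the mean and SD of each group of 3; every vertical axis starts at 0. H2-K1 stands at 100.4 to 122 FPKM in the scrambled libraries and at 148 to 167 FPKM in the Tfeb siRNA libraries, while Tap2 goes the other way, from 12.1 to 15.5 down to 9.07 to 10.4 FPKM.

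H2-K1 and H2-D1 are classical class I heavy chains, the polymorphic membrane proteins that hold the peptide. They lie on chromosome 17 in the mouse H2 complex, H2-K1 (ENSMUSG00000061232) at 33996017 to 34000333 on the minus strand and H2-D1 (ENSMUSG00000073411) at 35262730 to 35267499 on the plus strand (mm10). Their reads cannot always be told apart, because the genes are near copies. The longest coding transcripts of the pair in GENCODE M21 were 91.1% identical over 1578 aligned bases, and their longest identical coding stretch was 91 bases in exon 4 of each, the exon that encodes the alpha-3 domain next to the membrane. It is shown because a read inside it could come from either gene. It lies at chr17:33997343-33997433 on the minus strand for H2-K1 and at chr17:35265911-35266001 on the plus strand for H2-D1, written 5′ to 3′ along the transcript.
H2-K1 and H2-D1 exon 4: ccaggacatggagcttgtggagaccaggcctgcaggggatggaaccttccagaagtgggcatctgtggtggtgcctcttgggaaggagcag

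Of all 50-base words in the annotated transcripts, 9.63% of those of H2-K1 and 12.8% of those of H2-D1 recur in another gene. The most frequent partner of H2-K1 was H2-Q10, listed at a mean of 0.0414 FPKM, and the next was H2-D1. H2-D1 shared most with H2-Q1, at 0.179 FPKM, and then with H2-K1. The sources used here give neither read length nor the handling of reads with several matches. The H2 genes also differ between mouse strains, and the reference is of the C57BL/6 strain.

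H2-K1 had 100.4, 122 and 107 FPKM in the scrambled libraries and 148, 157 and 167 FPKM in the Tfeb siRNA libraries. Every Tfeb siRNA library was above every scrambled one. The mean rose 1.44-fold, from 110 ± 10.9 to 157 ± 9.76 FPKM (SD, n = 3; limma log2 fold change 0.52, SE 0.08, adjusted p = 0.0042), on 17846 reads in the 3 control libraries and 23637 in the others.

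H2-D1 had 93.7, 106 and 97.8 FPKM in the scrambled libraries and 107, 120 and 126 FPKM in the Tfeb siRNA libraries. The groups did not overlap, but Tfeb siRNA replicate 1 stood close to scrambled replicate 2. Its rise was 1.19-fold, from 99.2 ± 6.31 to 118 ± 9.44 FPKM (SD, n = 3; limma log2 fold change 0.24, SE 0.08, adjusted p = 0.0473). The call was lost without scrambled replicate 1 or 3 (adjusted p = 0.119 and 0.125) and without Tfeb siRNA replicate 2 or 3 (0.119 and 0.133). It was also lost with no filter on low values, where more genes are tested (limma adjusted p = 0.113), and with no mean-variance trend (0.0660).

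The summed reads of both heavy chains do not depend on how shared reads were split between them. The sum, as FPKM times length in kilobases, was 504, 591 and 531 in the scrambled libraries and 662, 719 and 761 in the Tfeb siRNA libraries. It was 1.32-fold higher after Tfeb siRNA, with no overlap (542 ± 44.7 against 714 ± 49.6, SD, n = 3; exact two-sided permutation p = 0.1, the smallest that 3 against 3 allows). Over the 31 H2 class I genes and pseudogenes of the table together the sum went from 674 to 859 on the same scale, and H2-K1 and H2-D1 held 80.4% of it in the control group and 83.1% after Tfeb siRNA. The ratio of H2-K1 to H2-D1, chosen after the values were seen, was 1.07, 1.15 and 1.09 in the scrambled libraries and 1.37, 1.31 and 1.33 in the Tfeb siRNA libraries (exact permutation p = 0.1). H2-K1 was therefore above H2-D1 in every library, by more in the Tfeb siRNA libraries.

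The promoters of both heavy chains and of B2m are shown because they share some of the sites known from class I genes. H2-K1 and H2-D1 passed the test and B2m did not. RefSeq windows of 300 bases (250 before to 50 after the start; GRCm38.p6) were found for 8 of the 10 members, with no entry for Tap2 and Nlrc5. They run 5′ to 3′ along the gene, at chr17:34000284-34000583 on the minus strand for H2-K1 (1 of its 2 entries), chr17:35262844-35263143 on the plus strand for H2-D1 and chr2:122147437-122147736 on the plus strand for B2m. Capitals mark matches to the interferon regulatory factor core AANNGAAA and to the NF-kB word GGGNNTTCC, on either strand.
H2-K1: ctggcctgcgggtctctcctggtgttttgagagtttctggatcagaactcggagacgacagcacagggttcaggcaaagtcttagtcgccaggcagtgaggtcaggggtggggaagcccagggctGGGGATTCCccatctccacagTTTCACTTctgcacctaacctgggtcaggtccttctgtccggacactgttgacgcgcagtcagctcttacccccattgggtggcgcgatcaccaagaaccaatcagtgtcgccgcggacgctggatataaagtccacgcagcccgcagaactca
H2-D1: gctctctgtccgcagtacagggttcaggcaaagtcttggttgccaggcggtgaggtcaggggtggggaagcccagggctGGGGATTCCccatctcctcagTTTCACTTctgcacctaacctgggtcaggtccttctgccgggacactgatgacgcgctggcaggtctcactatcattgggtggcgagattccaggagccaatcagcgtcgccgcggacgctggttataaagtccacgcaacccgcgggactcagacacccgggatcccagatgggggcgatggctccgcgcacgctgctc
B2m: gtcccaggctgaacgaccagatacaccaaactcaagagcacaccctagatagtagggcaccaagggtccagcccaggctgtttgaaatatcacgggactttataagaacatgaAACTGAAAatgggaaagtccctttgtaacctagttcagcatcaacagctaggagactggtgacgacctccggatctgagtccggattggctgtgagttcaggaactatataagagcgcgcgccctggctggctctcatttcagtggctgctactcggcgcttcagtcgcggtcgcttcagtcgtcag

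The windows of H2-K1 and H2-D1 were 87.8% identical over 253 aligned bases. Both hold the NF-kB word followed by the interferon regulatory factor core, at 125 and 104 bases before the start of H2-K1 and at 171 and 150 bases before that of H2-D1. The B2m window holds the core 137 bases before the start and no match to GGGNNTTCC. That word has a fixed length, and NF-kB sites of another length were not searched for. The missing match therefore does not show that B2m lacks an NF-kB site. Among 32851 promoter windows of this length, 23.9% hold the core and 5.82% the NF-kB word. All 3 windows also hold the core of the cyclic AMP response element, TGACG, (20.8% of all windows) and CCAAT (37.4%), both parts of the region that NLRC5 is known to act through. Of the other matched members, the Tap1 and Psmb9 windows, which share 275 of their 300 bases because the genes start back to back, hold TGACG and CCAAT; Tapbp holds CCAAT, Psmb8 the STAT word TTCNNNGAA (8.30% of all windows) and Psmb10 the E-box CACGTG (7.15%). The word TCACGTGA, the core of the site that TFEB is known to bind in lysosomal gene promoters, was in 0.974% of all windows and in 0 of the 8 matched members. A match is a description of these letters and shows no binding.

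B2m, the light chain that every class I heavy chain needs to reach the surface, was the most abundant member (ENSMUSG00000060802, chromosome 2, 122147686 to 122153083, plus strand). It ranked 8 of 12257 tested genes by mean FPKM. Its values were 1420, 1379 and 1308 FPKM in the scrambled libraries and 1451, 1387 and 1515 FPKM in the Tfeb siRNA libraries. The groups overlapped, and B2m did not pass the test (1369 ± 56.7 against 1451 ± 64.1 FPKM, SD, n = 3; limma log2 fold change 0.08, 95% interval -0.08 to 0.25, adjusted p = 0.400). None of its 50-base words recurs in another gene. The ratio of summed H2-K1 and H2-D1 FPKM to B2m FPKM, chosen after the values were seen, was 0.137, 0.165 and 0.156 in the scrambled libraries and 0.176, 0.1998 and 0.194 in the Tfeb siRNA libraries (exact permutation p = 0.1). The heavy chains were thus higher relative to their light chain in all 3 Tfeb siRNA libraries.

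Tap1 and Tap2 encode the subunits of the transporter that moves peptides into the endoplasmic reticulum. Tap2 was called lower, and Tap1 did not pass the test. Tap2 (ENSMUSG00000024339, chromosome 17, 34203527 to 34216321, plus strand) had 12.1, 15.5 and 13.3 FPKM in the scrambled libraries and 9.07, 10.4 and 9.23 FPKM in the Tfeb siRNA libraries. Each Tfeb siRNA library was below the lowest scrambled one. Its mean fell from 13.6 ± 1.68 to 9.57 ± 0.740 FPKM, to 0.702 of the scrambled level (SD, n = 3; limma log2 fold change -0.48, SE 0.10, adjusted p = 0.0097), on 3216 and 2087 reads. An annotated antisense gene, Gm15821, covers 533 bases of the Tap2 exons, but it was listed at a mean of only 0.309 FPKM; the sources used here do not say whether counting used strand.

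Tap1 (ENSMUSG00000037321, chromosome 17, 34187553 to 34197225, plus strand) had 10.9, 12.7 and 10.0 FPKM in the scrambled libraries and 11.9, 12.1 and 11.9 FPKM in the Tfeb siRNA libraries. The Tfeb siRNA values lay inside the range of the scrambled ones (11.2 ± 1.35 against 12.0 ± 0.126 FPKM, SD, n = 3; limma log2 fold change 0.10, 95% interval -0.10 to 0.30, adjusted p = 0.405). The ratio of Tap1 to Tap2, chosen after the values were seen, was 0.895, 0.821 and 0.756 in the scrambled libraries and 1.31, 1.16 and 1.29 in the Tfeb siRNA libraries (exact permutation p = 0.1). On the deposited gene lengths, Tap2 was thus the higher subunit in all 3 scrambled libraries and Tap1 in all 3 Tfeb siRNA libraries. Those lengths are 1.85 times the longest coding transcript for Tap1 and 1.10 times for Tap2. Tap1 had more reads than Tap2 in every library, so which subunit is the higher depends on the length used. The change of the ratio between the groups does not.

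Tapbp encodes tapasin, which bridges the transporter and the empty heavy chain (ENSMUSG00000024308, chromosome 17, 33915899 to 33929288, plus strand). It had 53.6, 59.1 and 56.2 FPKM in the scrambled libraries and 45.6, 48.3 and 54.1 FPKM in the Tfeb siRNA libraries. The groups overlapped only through Tfeb siRNA replicate 3. It did not pass the test (56.3 ± 2.77 against 49.4 ± 4.35 FPKM, SD, n = 3; limma log2 fold change -0.19, adjusted p = 0.0913) and passed with the replicate block (adjusted p = 0.0473) and without Tfeb siRNA replicate 3 (0.0375). Antisense transcripts of Gm19412 cover 904 bases of its exons, and that gene was listed at a mean of 0.0293 FPKM.

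**Figure D2:**
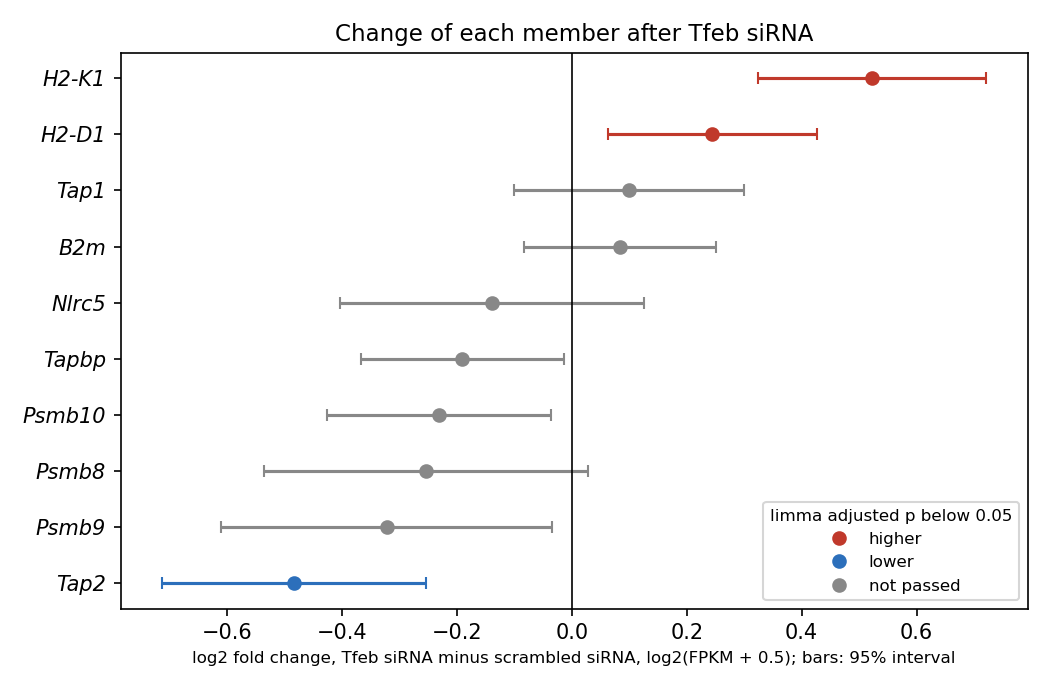
Log2 fold change of each member after Tfeb siRNA with its 95% interval, which is not adjusted for the number of genes; colour gives the call at the adjusted p. H2-K1 (0.52) and Tap2 (-0.48) lie farthest from 0, and the intervals of Tapbp, Psmb9 and Psmb10 exclude 0 although these genes did not pass after adjustment.

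The immunoproteasome subunits Psmb8, Psmb9 and Psmb10 replace Psmb5, Psmb6 and Psmb7 in the catalytic core and change which peptide ends are made. All 3 had lower means after Tfeb siRNA, and none passed the limma test. Psmb8 (ENSMUSG00000024338, chromosome 17, 34197721 to 34201454, plus strand) had 10.8, 14.2 and 12.1 FPKM in the scrambled libraries and 8.91, 11.3 and 10.6 FPKM in the Tfeb siRNA libraries, with overlap. Its log2 fold change was -0.25 (12.4 ± 1.72 against 10.3 ± 1.23 FPKM, SD, n = 3; limma adjusted p = 0.146, and 0.0141 with the replicate block). Each Tfeb siRNA library was below the scrambled library of its own number.

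Psmb9 (ENSMUSG00000096727, chromosome 17, 34181988 to 34187764, minus strand) was the lowest member, with 2.98, 3.08 and 2.57 FPKM in the scrambled libraries and 2.39, 1.81 and 2.43 FPKM in the Tfeb siRNA libraries. The groups did not overlap, on 657 and 463 reads (2.88 ± 0.266 against 2.21 ± 0.349 FPKM, SD, n = 3; limma log2 fold change -0.32, adjusted p = 0.0837). Its exons overlap those of Tap1 on the opposite strand over 212 bases, so reads there could belong to either gene if strand was not used, and Tap1 was the more abundant of the pair. Psmb10 (ENSMUSG00000031897, chromosome 8, 105935735 to 105938444, minus strand) was the most abundant of the 3 subunits, with 38.2, 41.4 and 35.3 FPKM in the scrambled libraries and 32.7, 29.7 and 35.2 FPKM in the Tfeb siRNA libraries. Its groups were separated only by the gap between scrambled replicate 3 and Tfeb siRNA replicate 3 (38.3 ± 3.02 against 32.5 ± 2.72 FPKM, SD, n = 3; limma log2 fold change -0.23, adjusted p = 0.0700).

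The standard subunits did not pass the test either. Psmb5 had 93.8 and 85.6 FPKM (limma adjusted p = 0.325, and 0.0469 with the replicate block), Psmb6 had 36.6 and 39.7 FPKM (0.145) and Psmb7 had 34.1 and 32.7 FPKM (0.412). The ratio of Psmb9 to Psmb6 was 0.0795, 0.0838 and 0.0724 in the scrambled libraries and 0.0613, 0.0474 and 0.0579 in the Tfeb siRNA libraries. That ratio was lower in every Tfeb siRNA library, with a log2 difference of -0.51 (exact permutation p = 0.1). The ratio of Psmb10 to Psmb7 was 1.07, 1.25 and 1.05 in the scrambled libraries and 0.996, 0.940 and 1.05 in the Tfeb siRNA libraries, a log2 difference of -0.17 with groups that only just did not overlap (exact permutation p = 0.1). Without scrambled replicate 2 this difference was -0.09. The ratio of Psmb8 to Psmb5 went from 0.132 ± 0.0196 to 0.120 ± 0.0136 (SD, n = 3) and the groups overlapped (exact permutation p = 0.5; log2 difference -0.13, and -0.01 without scrambled replicate 2). Of the 50-base words of Psmb5, 54.1% recur in other genes, mostly in Gm3375, which was listed at a mean of 38.1 FPKM, so the level of Psmb5 is uncertain.

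**Figure D3:**
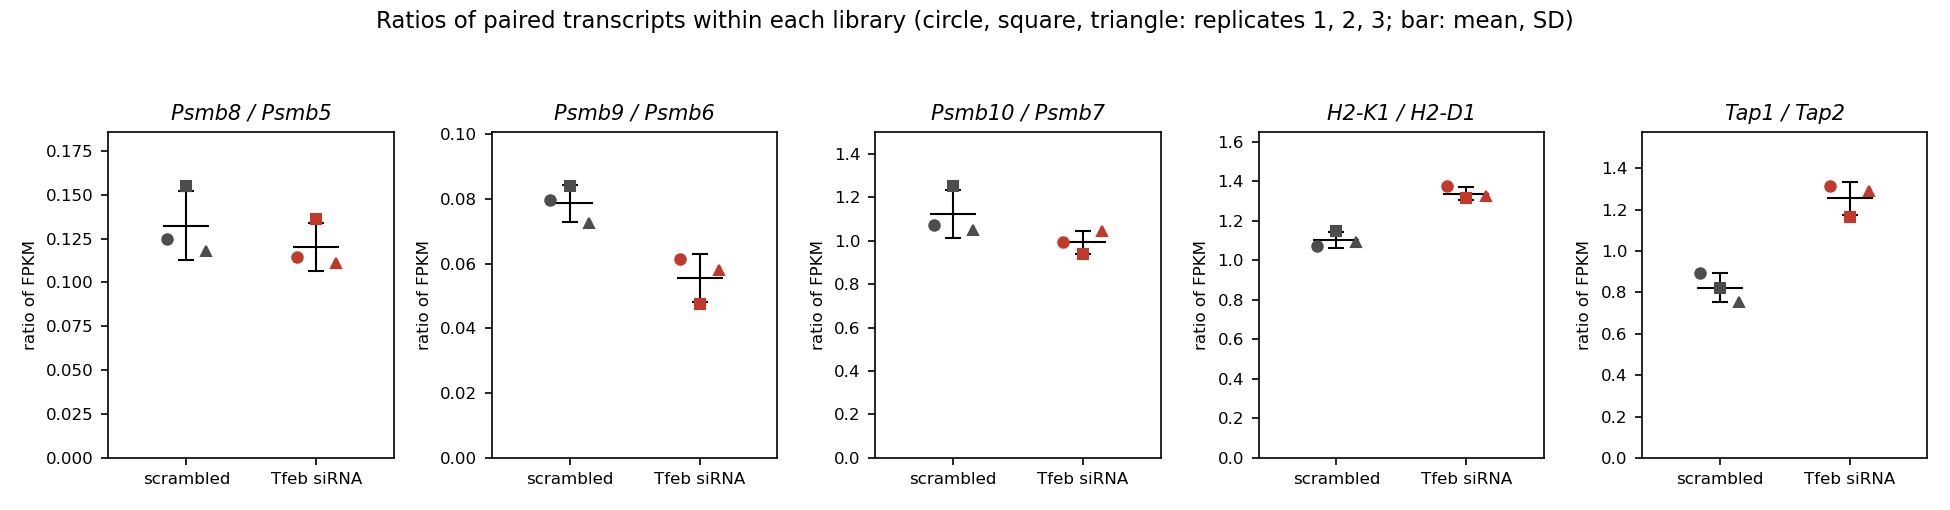
Ratios of FPKM within each library for the 3 pairs of immunoproteasome and standard subunits, for H2-K1 over H2-D1 and for Tap1 over Tap2 (points: libraries, with replicates 1, 2 and 3 as circle, square and triangle; bars: mean and SD of 3); every vertical axis starts at 0. Tap1 over Tap2 lies at 0.756 to 0.895 in the scrambled libraries and at 1.16 to 1.31 in the Tfeb siRNA libraries, and Psmb8 over Psmb5 overlaps between the groups.

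Nlrc5, the activator of class I promoters, ranked 6389 of 12257 tested genes by mean FPKM (ENSMUSG00000074151, chromosome 8, 94434356 to 94527272, plus strand). It had 8.56, 7.85 and 7.02 FPKM in the scrambled libraries and 7.56, 7.69 and 5.96 FPKM in the Tfeb siRNA libraries. The groups overlapped (7.81 ± 0.771 against 7.07 ± 0.964 FPKM, SD, n = 3; limma log2 fold change -0.14, 95% interval -0.40 to 0.13, adjusted p = 0.380).

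By mean FPKM in the scrambled group the order was B2m, H2-K1, H2-D1, Tapbp, Psmb10, Tap2, Psmb8, Tap1, Nlrc5 and Psmb9. The scrambled libraries overlapped for the neighbours H2-K1 and H2-D1, Tap2 and Psmb8, and Psmb8 and Tap1, and for no other neighbouring pair. In the Tfeb siRNA group the order differed only in that Tap1 and Tap2 changed places, and Psmb8 and Tap2 were the only neighbours that overlapped. FPKM divides by the deposited gene length, which equalled the longest coding transcript for B2m and was 2.71 times as long for Psmb9, so the order depends on the length used.

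Among the scrambled libraries, replicate 2 was the highest for 8 of the 10 members, all but B2m and Nlrc5, and for 34.4% of all tested genes. The interferon response genes Stat2, Irf7 and Irf9 were highest in that library as well. Irf7, which amplifies the type I interferon response, had 4.82, 8.83 and 4.09 FPKM in the scrambled libraries and 7.56, 7.89 and 7.55 FPKM in the Tfeb siRNA libraries. The coefficient of variation within the scrambled group was 43.2% for Irf7 and 26.5% for Stat2. The part of this spread in the members' results was not tested. Without scrambled replicate 2, H2-K1, H2-D1 and Tap2 were still called.

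In the other 21 class I and class I-like heavy chains in the table, 11 passed the filter. Of these, 2 rose and 1 fell, with a median log2 fold change of 0.09. The share called was 27.3%, beside 33.3% of all tested genes. A further 2 listed genes, H2-Q8 and H2-Q9, had no row. Mr1, which presents vitamin B metabolites to innate-like T cells, fell from 7.59 ± 0.765 to 4.66 ± 0.363 FPKM (SD, n = 3; limma log2 fold change -0.65, adjusted p = 0.0022) and shares no 50-base word with another gene. Cd1d1, which presents lipids to natural killer T cells, rose 1.74-fold, from 1.40 ± 0.257 to 2.44 ± 0.412 FPKM (limma adjusted p = 0.0182), a call that ended when any of 3 libraries was left out (highest 0.0621, without Tfeb siRNA replicate 3). H2-Q4, a nonclassical heavy chain, rose 1.30-fold, from 9.93 ± 1.40 to 12.9 ± 1.27 FPKM (limma adjusted p = 0.0408), a call that ended when any of 4 libraries was left out (highest 0.122, without scrambled replicate 3). Of its 50-base words 36.4% recur in other genes, so its level is uncertain.

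Of the 13 genes of folding, loading and trimming in the endoplasmic reticulum, all tested, 5 rose and 1 fell (median log2 fold change 0.12). The share called was 46.2%, beside 33.3% of all tested genes. Ganab, the glucosidase II subunit that trims sugars on new glycoproteins, rose 1.85-fold, from 85.7 ± 5.48 to 158 ± 5.63 FPKM (SD, n = 3; limma adjusted p = 0.0003). Hspa5, the chaperone BiP, rose 1.34-fold (limma log2 fold change 0.42, adjusted p = 0.0025). Tapbpl, a relative of tapasin that edits the peptides bound to class I, fell to 6.23 ± 0.460 from 8.42 ± 0.846 FPKM (limma log2 fold change -0.40, adjusted p = 0.0125). The other 3 called higher were Pdia3, Uggt2 and Sec61a1, named after their values were seen; each call ended when any of 5 or 6 libraries was left out (highest limma adjusted p 0.0797, 0.123 and 0.0766, each without scrambled replicate 3).

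Of 7 cytosolic peptidases that trim or destroy peptides, 2 rose and 0 fell (median log2 fold change 0.04). The share called was 28.6%, beside 33.3% of all tested genes. Blmh, bleomycin hydrolase, rose 1.45-fold (limma log2 fold change 0.51, adjusted p = 0.0012), and Thop1, thimet oligopeptidase, rose 1.32-fold (0.37, adjusted p = 0.0291; up to 0.0930, without Tfeb siRNA replicate 2, when 1 library was left out). Of 20 standard proteasome and activator genes, 2 rose and 3 fell (median -0.03), so 25% were called, beside the same 33.3%. The core subunit Psmb2 rose 1.51-fold, from 56.0 ± 2.15 to 84.3 ± 5.18 FPKM (SD, n = 3; limma adjusted p = 0.0010), and Psma5 rose 1.18-fold (adjusted p = 0.0164, and 0.0554 without Tfeb siRNA replicate 3). Psmb3 fell to 0.844 of the scrambled level (limma adjusted p = 0.0265) and Pomp, the proteasome assembly chaperone, to 0.853 (0.0233); each call ended when any of 4 libraries was left out, with highest values of 0.0756 (without Tfeb siRNA replicate 1) and 0.0731 (without scrambled replicate 3). The remaining gene that fell was Psma6, named after its values were seen (limma adjusted p = 0.0398, up to 0.121 without scrambled replicate 3). The activator subunits Psme1 and Psme2, known as PA28 and induced by interferon gamma, had 11.7 and 12.97 FPKM and 5.22 and 4.70 FPKM in the scrambled and Tfeb siRNA groups and did not pass (limma adjusted p = 0.317 and 0.308); they too were named after their values were seen.

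Of 22 interferon receptor and signalling genes, 20 were tested, of which 2 rose and 2 fell (median log2 fold change 0.07). The share called was 20%, beside 33.3% of all tested genes. Ifngr2, the signalling chain of the interferon gamma receptor, fell from 23.2 ± 1.43 to 16.1 ± 0.672 FPKM, to 0.693 of the scrambled level (SD, n = 3; limma log2 fold change -0.51, adjusted p = 0.0014). Of the kinases that the receptor uses, Jak1 rose 1.18-fold (limma adjusted p = 0.0115) while Jak2 fell to 0.852 of its level (0.0308, and up to 0.103 without scrambled replicate 3). Ptpn11, the phosphatase SHP2, rose 1.19-fold (limma adjusted p = 0.0120). Irf1, which carries the interferon signal to class I promoters, was named after its values were seen; it had 21.5 ± 2.76 and 17.9 ± 0.778 FPKM (SD, n = 3) and did not pass (limma adjusted p = 0.0876).

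Of 12 tested genes for factors that bind class I promoters, 0 rose and 1 fell (median log2 fold change -0.04). The share called was 8.33%, beside 33.3% of all tested genes. With the replicate block, 1 was higher and 2 lower. Rfxap, a subunit of the RFX complex, fell from 7.89 ± 0.998 to 5.07 ± 1.04 FPKM (SD, n = 3; limma log2 fold change -0.60, adjusted p = 0.0229), and lost its call without scrambled replicate 2 or 3 (highest 0.0700, without replicate 2). Ciita, the relative of Nlrc5 that drives class II genes, lay below the filter.

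MHC class II genes present peptides from lysosomes and share RFX and NF-Y factors with class I. They had 6 tested members, of which 0 rose and 4 fell (median log2 fold change -0.46). The share called was 66.7%, beside 33.3% of all tested genes, and the list was not tested as a set. Cd74, the invariant chain, fell from 85.9 ± 3.71 to 55.2 ± 3.71 FPKM (SD, n = 3; limma log2 fold change -0.63, adjusted p = 0.0009), and H2-Eb1, a class II beta chain, fell from 31.6 ± 3.55 to 22.1 ± 0.748 FPKM (-0.50, adjusted p = 0.0046). H2-DMb1 (-0.46) and H2-Ab1 (-0.45), named after their values were seen, fell as well; the call of H2-Ab1 ended when any of 4 libraries was left out (highest limma adjusted p 0.0759, without Tfeb siRNA replicate 2). The difference between class I and class II genes was not tested. Class II genes are typical of leukocytes, and the leukocyte markers summed to 19.5 to 22.6 FPKM in the scrambled libraries and 18.0 to 20.6 FPKM in the Tfeb siRNA libraries. Of 12 leukocyte markers, Cd3e, Cd8a and Ncr1 had 0 reads in all libraries and Ptprc had 0.0262 and 0.0178 FPKM, while Csf1r fell from 4.25 to 2.24 FPKM (limma adjusted p = 0.0007). Cd14, the most abundant of these markers, had 10.1 and 11.1 FPKM and Cd68 had 5.76 and 4.56 FPKM, and neither passed (limma adjusted p = 0.213 and 0.148). Lyz2 had 0.742 and 1.26 FPKM and did not pass (limma adjusted p = 0.164, and 0.0415 with the replicate block).

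**Figure D4:**
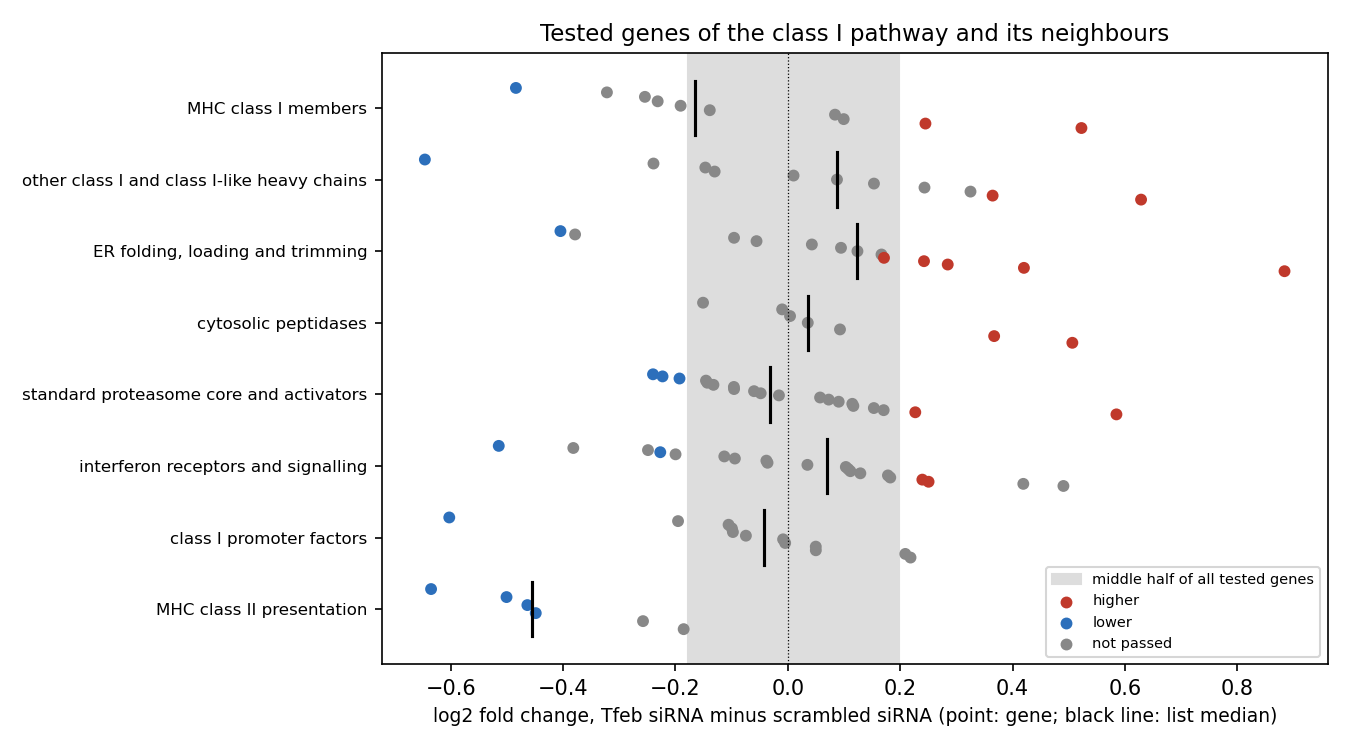
Log2 fold change after Tfeb siRNA of every tested gene in the members and 7 related lists (points; colour gives the limma call), with the median of each list as a black line and the middle 50% of all 12257 tested genes, -0.18 to 0.20, as a grey band. The members lie on both sides of 0, and the 6 tested class II genes all lie below 0.

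The genes whose pattern over the 6 libraries was most like the summed H2-K1 and H2-D1 level, among all tested genes outside the members, were Cnppd1 (Pearson r = 0.999), Gm5597 (0.999), Phldb1 (0.998), Galnt17 (0.997) and Chst14 (0.996). The 6 libraries fall into the groups of the comparison, so these values follow the difference between groups and are given as a description.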

How the data were processed

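RNA sequencing libraries (6 in all, 3 per group) were analysed as labelled samples; the titles gave group and replicate number. RNA was extracted with TRIzol, per the labels' protocols, and the submitters' processing notes name the build mm10. The sources used here do not give the aligner, counter, annotation release or use of strand. The authors deposited FPKM values, 1 column per library, with gene positions and lengths, per the file headers; 0 columns belonged to other samples. FPKM times length was a whole multiple of 1 step per library for 100% of values above 0 (tolerance 1e-06), so reads per gene and depth were derived.

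The model was limma (3.58.1, under R 4.3.3) with a mean-variance trend, fitted to log2(FPKM + 0.5) for 12257 of 53715 genes, those whose mean reached 1 FPKM, two-sided, with Benjamini-Hochberg adjustment over all tested genes. Fold changes on this scale understate the change of low genes. The fit was run on simulated data with fewer changed genes than were called here, and with larger changes than those of the members. That run does not show how well changes of the members' size are recovered. Sums and ratios were compared with exact two-sided permutation tests over samples. FPKM ratios have no pseudocount. Errors are SD over 3 libraries or the SE of a log2 fold change.

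The members and lists were chosen with earlier results of these data known, and no list was tested as a set. Named genes are the members, Psmb5, Psmb6 and Psmb7, Tfeb and the markers. In each list, up to 2 called genes with the largest change in each direction are named as well. Others in the lists are marked, apart from Stat2, Irf7, Irf9 and Ciita, which this rule did not pick. Residual correlations between same-numbered libraries were 0.382, 0.129 and 0.166 for numbers 1, 2 and 3. Between differently numbered libraries they ran from -0.239 to 0.106, and were 0.0996 and 0.106 between numbers 2 and 3. Only number 1 thus stood clearly apart. The replicate block took the numbers as pairs, and the main test did not. That pairing comes from the data, as the titles only number the libraries. Shared 50-base words and exon overlaps came from GENCODE M21, and promoter windows from RefSeq (GRCm38.p6). The H2 identity used pairwise alignment of the longest coding transcripts. Alternatives were other pseudocounts, filters and scalings, voom on derived reads, the replicate block and leaving out each library.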

Additional observations from a re-analysis of the deposited data

How the results depend on the processing

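No member changed direction under any alternative run. Of 150 alternative values of the members' log2 fold changes, 136 kept their call, 7 lost and 7 gained one. H2-D1 (0.24) lost its call with no filter, with a filter at a mean of 0.2 FPKM and with no trend (limma adjusted p = 0.113, 0.0589 and 0.0660), and without 4 of the 6 libraries. Tapbp was called lower with values rescaled to TPM (-0.22), with voom on derived reads (-0.19), with the replicate block (-0.19) and without Tfeb siRNA replicate 3 (-0.26). Psmb8 was called with the replicate block (-0.25) and Psmb10 with TPM (-0.26) and voom (-0.24). So 5 members were called with TPM, with voom and with the replicate block, beside 31.2%, 36.8% and 40.2% of all tested genes; the block changed no other member's call; 2 to 3 were called when a library was left out, beside 22.7% to 27.9% of all tested genes. The sums and ratios moved by less than the SD between replicates, but without 1 library the log2 difference ranged from -0.22 to -0.09 for Psmb10 to Psmb7, -0.22 to -0.01 for Psmb8 to Psmb5 and -0.58 to -0.40 for Psmb9 to Psmb6.

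Leaving out 1 library gave log2 fold changes of 0.46 to 0.60 for H2-K1, 0.19 to 0.31 for H2-D1, -0.56 to -0.39 for Tap2, -0.26 to -0.14 for Tapbp, -0.34 to -0.15 for Psmb8, -0.39 to -0.21 for Psmb9, -0.29 to -0.17 for Psmb10, 0.05 to 0.12 for B2m, 0.03 to 0.19 for Tap1 and -0.21 to -0.03 for Nlrc5. The genes called then were 1 to 3 of the other heavy chains, 3 to 5 of the endoplasmic reticulum list, 1 to 2 peptidases, 2 to 4 proteasome genes, 3 to 5 interferon genes, 0 to 2 promoter factors and 3 to 4 class II genes; the cause was not tested. With no filter, 1 other heavy chain, 1 peptidase, 3 proteasome genes and 0 promoter factors were called. That setting tested 18 of the other heavy chains and called 11.8% of all 29171 genes tested, beside 33.3% in the main run. With voom 7 interferon genes were called. Promoter factors called were 2 with TPM, upper-quartile scaling or voom and 3 with the replicate block. With that block, 3 of the other heavy chains were higher and 1 lower, and likewise 5 and 2 of the endoplasmic reticulum list, 2 and 1 peptidases, 3 and 4 proteasome genes, 3 and 2 interferon genes and 0 and 5 class II genes. Scaling moved the median of all tested genes to -0.01 (TPM) from 0.02.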
